A study of Mus musculus with 6 samples.

Results

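The Wnt ligands, their Frizzled receptors and the proteins that carry or block the signal were examined in LSK-SLAM cells, the marrow fraction in which hematopoietic stem cells (HSC) are concentrated. Probes were taken by gene name: all Wnt, Frizzled (Fzd), Dishevelled (Dvl), secreted Frizzled-related (Sfrp) and Dickkopf (Dkk) genes, with 15 single genes from the coreceptors Lrp5 and Lrp6 to β-catenin (Ctnnb1) and its Tcf/Lef partners. The rule found 71 of 39429 probes, for 55 of the 31693 gene names on the array. The rule uses gene names alone.

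The study asked how loss of p190-B, a GTPase-activating protein encoded by Arhgap5, changes gene expression in HSC after serial transplantation. Donor cells came from fetal livers of p190-B-/- embryos (constitutive loss, from p190-B+/- mice backcrossed to C57BL/6J) or WT littermates, and were CD45.2+. They were transplanted with CD45.1+ competitor marrow cells into lethally irradiated CD45.1+ mice, and marrow of these mice was then moved to secondary, equally irradiated recipients. The arrays hold RNA of Lin-negative, c-Kit+, Sca-1+, CD150+, CD48-negative marrow cells of secondary recipients, amplified as cDNA before labelling, from 3 2T-WT and 3 2T-p190-B-/- samples. Both groups therefore share the irradiated host and 2 rounds of transplantation, and no untransplanted sample was on the arrays. Whether an array is 1 mouse or a pool is not in the labels, so the p-values measure only the spread between these arrays.

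A Wnt protein is fitted with a lipid by Porcn, carried out of the cell by Wls and bound at the surface of the receiving cell by a Frizzled receptor with Lrp5 or Lrp6. Dishevelled then holds back the destruction complex (Axin, Apc, Gsk3, Csnk1a1), which otherwise marks β-catenin for degradation, and β-catenin enters the nucleus to act with Tcf/Lef factors. Ligands such as Wnt5a act mainly through a branch without β-catenin, which controls cell polarity. In marrow, Wnt signals are known to come from stromal and from blood cells and to influence how HSC are maintained.

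What an array reports for a gene is the brightness of a probe, so the probes on which the results turn are shown first. Each line gives a gene, the position of its probe of 60 bases in the mouse build mm9 with the strand, and the first 30 bases of the probe from its 5′ end. Capitals mark the longest run of G and C in the printed part, because the G and C content moved with detection on these arrays. The files give the position of a probe but not the part of the transcript it reads.
Wnt1, chr15:98624201-98624260, plus strand: agtggctcctCGCCCCCaccaatgtagtat
Wnt16, chr6:22247804-22247863, plus strand: acggagtttCCGGCtcctgtgctgtgaaaa
Wnt5a, chr14:29336664-29336723, plus strand: cctaaCCCagaggttaccagcctggttttg
Wnt6, chr1:74831461-74831520, plus strand: ttcctcagaattactGGGatggatgggtga
Fzd6, chr15:38869107-38869166, plus strand: GGCCGagctgtcgattccccttttaagtgt
Lrp6, chr6:134400440-134400499, minus strand: caaaggaaacaggaaaagaaaGGCatcact
Ctnnb1, chr9:120869274-120869333, plus strand: ttctaagaaCCGagtaatggtgtagaacac
The Wnt1, Wnt16, Wnt5a, Fzd6 and Lrp6 probes are among the 6 tested probes of these genes whose genotypes did not overlap. The remaining one, of Fzd8, is not printed. The Wnt6 and Ctnnb1 probes both hold 35.0% G and C, yet the first was well above background on all 6 arrays and the second on none.

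The arrays differed in brightness. The 75th percentile of the signal was 53.9 to 227 on the 2T-WT arrays and 252 to 385 on the 2T-p190-B-/- arrays, and 48.4% to 66.5% and 53.0% to 73.1% of all probes were well above background. Values are given as log2 of a probe's signal over the 75th percentile of its array, differences as 2T-p190-B-/- minus 2T-WT. The median difference over all 25159 tested probes was −0.33. One slide carries arrays of both genotypes (2T-WT replicates 2 and 3, 2T-p190-B-/- replicates 1 and 2), and the other 2 arrays lie alone on their slides. The Arhgap5 probe was above background on 0 2T-WT arrays and on 1 2T-p190-B-/- array, and so does not check the genotypes. Of 14 HSC marker genes 8 were tested, Kit and Ly6a (Sca-1) among them, while Slamf1 (CD150) and Procr were above background on no array, and both probes of Cd48, whose protein the sort excludes, were above it on all 6. Of the lists for other cells, the summed linear signal of 6 tested of 10 red cell precursor genes was 325 to 986 (2T-WT) and 213 to 302 (2T-p190-B-/-), with Hbb-b1 above background on no array. A single gene, Ermap, carried that sum. Without it the sums were 2.23 to 5.99 and 4.18 to 5.47, and 4 of the 6 genes were higher in 2T-p190-B-/- (list median 0.18). For 8 of 10 neutrophil genes the sums were 7.20 to 15.2 and 5.17 to 8.12 (list median −0.65), with S100a9 on no array. The T lymphocyte sums, 40.6 to 140 and 31.3 to 54.4 over 6 of 7 genes, rested on Cd4, and those of 3 of 7 megakaryocyte genes, 51.3 to 86.0 and 21.5 to 56.5, on Itgb3. Without these genes they were 5.82 to 13.7 against 8.05 to 14.0 and 2.15 to 19.2 against 4.22 to 5.73, and the list medians were −0.28 and −0.21. For 7 of 12 stroma and endothelium genes the sums were 17.4 to 20.3 and 11.8 to 31.8 (list median −0.11). Of 8 tested B lymphocyte genes 6 were lower in 2T-p190-B-/-, with a list median of −1.43 and sums of 6.21 to 726 and 5.09 to 7.14. The high sum is that of 2T-WT replicate 3, on which Cd79a read 9.47 against −3.80 and −3.35 on the other 2T-WT arrays. The same array was also the highest of all 6 for many genes below. Among them were Wnt1, Wnt5a, Wnt5b, Wnt6, Wnt10b, Wnt11, Wnt16, Fzd5, Lrp6 and Tcf7l2 at their brightest probes, and Gpc6 and Rac1. It was the lowest of all 6 for Wnt4, Axin1 and Gsk3b. Wnt16, Fzd5 and Rac1 are described below with and without it. Without it the difference was −0.72 for Wnt5a and −1.02 for Lrp6. The part of other cells or of brightness in the values below was not tested. In RNA of a sorted population, fewer cells of a type and less RNA per cell cannot be told apart.

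Detection differed from role to role. Of the 71 member probes, 25 were well above background on all 6 arrays, 35.2% against 34.9% of all probes, and 17 on none, 23.9% against 16.8%. Of the 22 probes for Wnt ligands 11 were above background on all 6 arrays, as were all 3 probes for Lrp5 and Lrp6. Of 13 Frizzled probes this held for 1, and of 8 probes for β-catenin and the Tcf/Lef factors for 2, while 5 of those 8 were on no array. By gene, 11 of 55 were on no array with any probe: the ligands Wnt3 and Wnt10a, the carrier Wls, the antagonists Dkk3 and Sfrp2, the receptors Fzd1, Fzd3 and Fzd10, β-catenin itself (Ctnnb1), and the transcription factors Tcf7 and Tcf7l1. A further 8 genes were above background on only 1 or 2 arrays, which leaves 36 genes and 43 probes for the test, those above background on at least 3 arrays. Ctnnb1 has 1 probe, so what is missing is a signal at that probe.

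**Figure D1:**
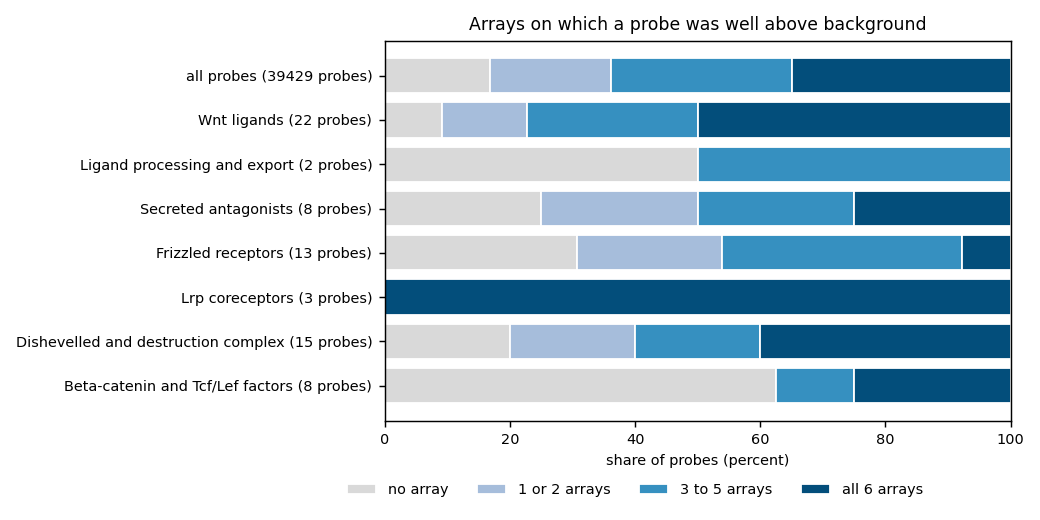
Share of probes (horizontal axis, percent) well above background on no array, 1 or 2, 3 to 5 or all 6 arrays, for all probes and for each role in the Wnt pathway. All 3 Lrp probes were above background on all 6 arrays, against 1 of 13 Frizzled probes, and 5 of 8 probes for β-catenin and Tcf/Lef factors were above it on none.

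Detection followed the composition of the probe in the members as in the whole array. Of the 35 member probes with up to 40% G and C, 37.1% were on no array and 20.0% on all 6, against 30.4% and 17.0% of all probes of that range. Between 50% and 60% G and C, 0 of 10 member probes were on no array and 70.0% on all 6, against 1.05% and 73.1% of all probes. Spearman's rank correlation between G and C content and the number of arrays was 0.51 over the 71 members and 0.51 over all 39429 probes, a description across probes that share the same arrays. The median G and C content was 35.0% in the 17 members on no array and 45.0% in the 25 on all 6. Between composition and the difference between genotypes this correlation was 0.13 over the 43 tested members and 0.14 over all tested probes.

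**Figure D2:**
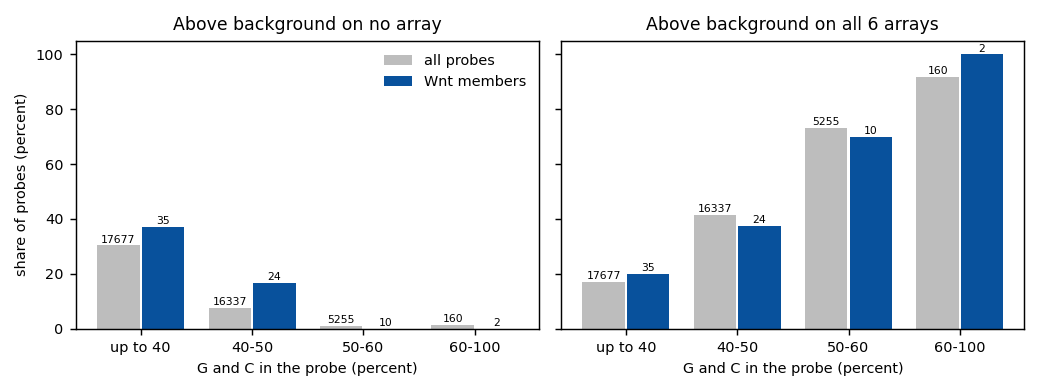
Share of probes (vertical axis, percent) above background on no array (left) and on all 6 arrays (right) by the G and C content of the probe (horizontal axis, percent), for all probes (grey) and the 71 member probes (blue), with the number of probes over each bar. Probes with more G and C were above background more often in both sets.

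No member passed the test. By limma with Benjamini-Hochberg adjustment over all tested probes, 0 of the 43 member probes had an adjusted p under 0.05, beside 0.0% of all probes, and the smallest adjusted p was 0.64. At an unadjusted p under 0.05 the count was also 0, where 6.57% of all tested probes lay, and the smallest member p was 0.0791 (Fzd2). The methods' t-test gave 1 member at a p of 0.05 or less with a 2-fold difference (Lrp6, 6.41% of all probes) and 0 after Benjamini-Hochberg. The differences leaned to the lower side: 32 of 43 member probes were lower in 2T-p190-B-/-, 74.4% against 60.8% of all tested probes. Under the median of all tested probes, −0.33, lay 23 of the 43. By 2-fold or more, 14 of the 43 were lower and 3 higher, where all probes gave 27.9% and 15.9%. With each gene taken at its brightest tested probe, 29 of 36 genes were lower and 7 higher, where 61.4% of all 21670 genes were lower. The median was −0.42 against −0.35 over all genes, and 20 of the 36 were under that value. After normexp background correction 25 of the 36 were lower, beside 68.1% of all genes. After quantile normalization 23 were, beside 54.5%. The size of the lean thus depended on the setting. Within the slide that holds both genotypes the member median was −0.86 and that of all genes −0.50. Without 2T-p190-B-/- replicate 2 they were −0.23 and −0.34.

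**Figure D3:**
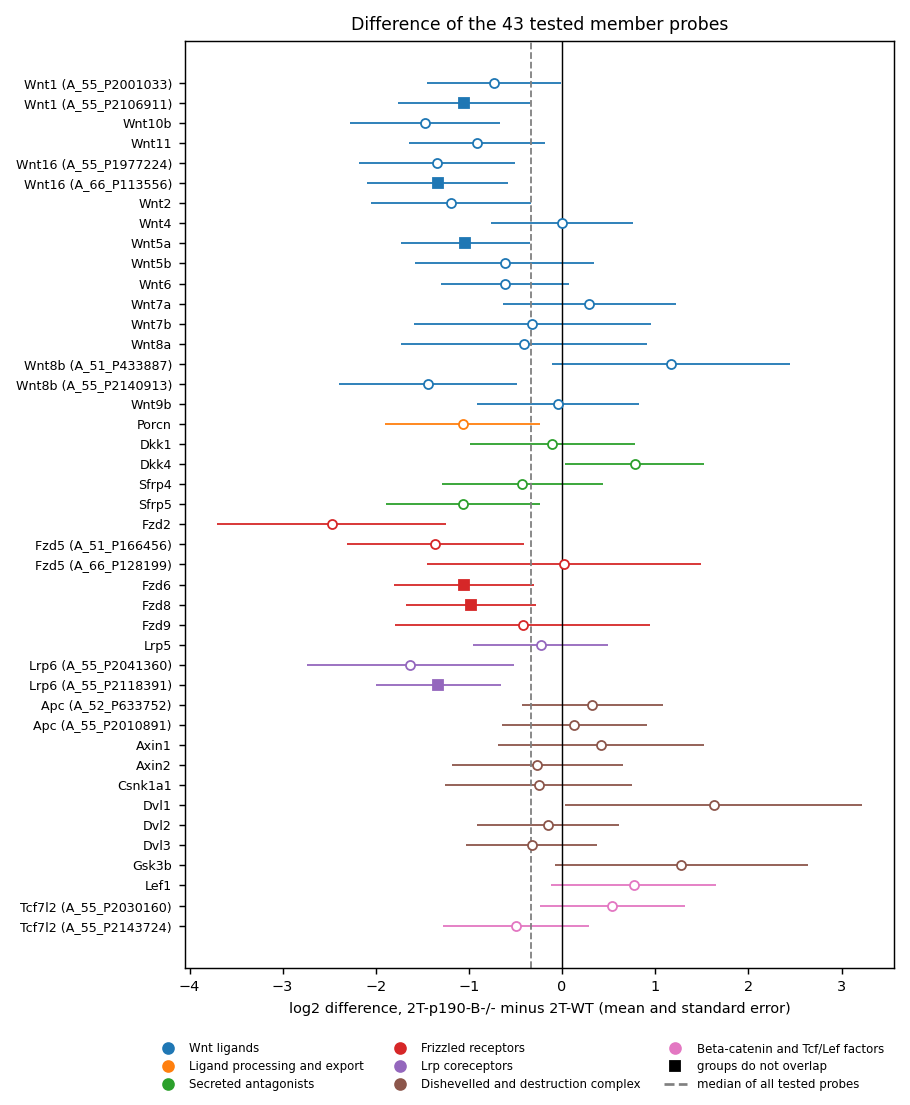
Log2 difference between genotypes (horizontal axis, 2T-p190-B-/- minus 2T-WT, with limma's standard error) for the 43 tested member probes, coloured by role, filled squares where the groups do not overlap, the dashed line at the median of all tested probes, −0.33. Most ligand, Frizzled and Lrp probes lie left of 0, and those of the destruction complex lie on both sides of it.

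The 2T-p190-B-/- arrays all lay below the 2T-WT arrays for 6 member probes and above them for 0, and all tested probes gave 11.5% lower and 4.47% higher, 15.9% in all. The 6 are Wnt1, Wnt16, Wnt5a, Fzd6, Fzd8 and Lrp6. With 3 arrays per genotype the smallest two-sided p of an exact permutation test is 0.1, which is the value each of the 6 has.

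**Figure D4:**
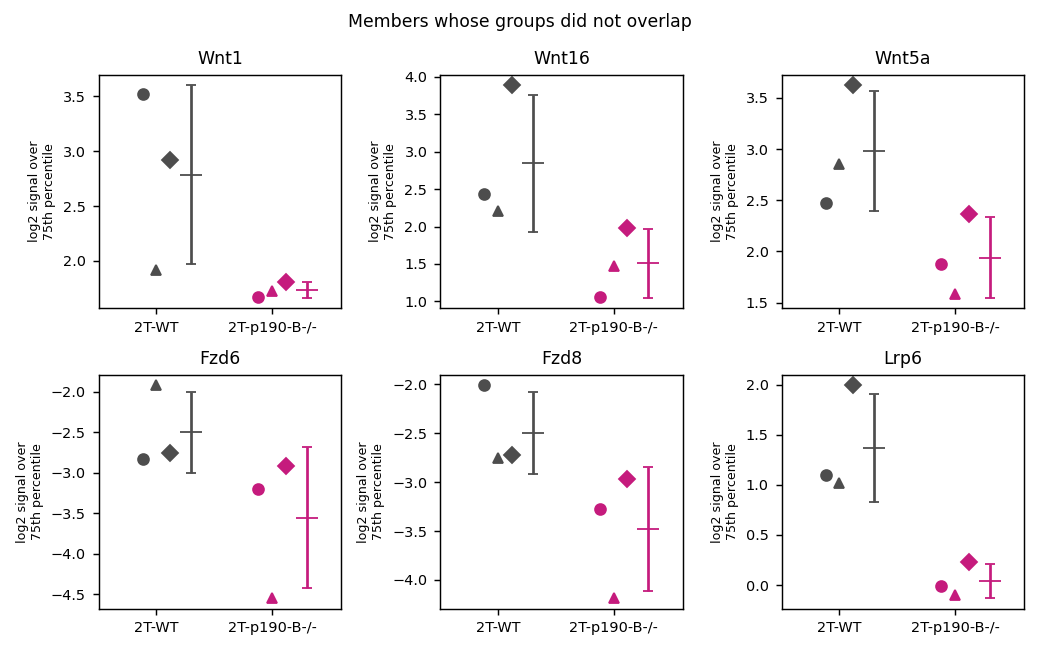
Log2 signal over the array's 75th percentile (vertical axis, a scale of its own in each panel) for the 6 member probes whose groups did not overlap, with 2T-WT in grey and 2T-p190-B-/- in pink. Circle, triangle and diamond are replicates 1, 2 and 3, and the bar is the mean with SD; the widest gap between the nearest arrays of the groups is that of Lrp6, from 0.23 to 1.02.

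Among the ligands, 14 of 19 genes were tested. Of these 13 were lower, Wnt4 among them at −0.0010, and 1 higher, where 61.4% of all genes were lower. The median difference was −0.68, 10 were below the all-gene median, and 0 had an adjusted p under 0.05. With each array centred on its median, and in the authors' processed values, 11 of the 14 were lower. The ligand median was −1.36 within the shared slide, −1.06 without 2T-WT replicate 1 and −1.05 without 2T-WT replicate 2. It was smaller, −0.56, without 2T-WT replicate 3, with all genes at −0.26. Without 2T-p190-B-/- replicate 2 it was −0.47, with all genes at −0.34 and 8 of the 14 ligands below that value. After quantile normalization, which brought the median of all genes to −0.11, 9 of the 14 were lower, and after normexp background correction, where it was −0.44, also 9. The sign of several ligands thus depended on the scaling or the background correction, and 9 and 7 of the 14 were below the all-gene median in those settings.

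Wnt16, a ligand known from fish embryos to act upstream of HSC formation, had the largest difference of the ligands whose groups did not overlap. Its brighter probe read 2.44, 2.20 and 3.89 in 2T-WT and 1.06, 1.48 and 1.98 in 2T-p190-B-/-. The highest array, 2T-WT replicate 3, stood well above the other 2T-WT arrays, and the nearest arrays of the groups were 1.98 and 2.20. The difference was −1.34 ± 0.75 (SE, n = 3 per group, limma adjusted p = 0.64), −0.81 without 2T-WT replicate 3 and −0.59 after normexp. The other Wnt16 probe gave −1.35 ± 0.84, with 2T-p190-B-/- replicate 3 above 2T-WT replicate 1, and −2.40 within the shared slide.

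Wnt5a, the best-known ligand of the branch without β-catenin, read 2.47, 2.85 and 3.63 in 2T-WT and 1.87, 1.59 and 2.36 in 2T-p190-B-/-. The groups were apart by the small step from 2.36 to 2.47. The difference was −1.04 ± 0.69 (limma adjusted p = 0.64), between −1.30 and −0.72 with 1 array left out, −1.51 within the shared slide and −0.33 after normexp.

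Wnt1, the founding member of the family and a β-catenin ligand, has 2 probes, both above background on all 6 arrays. The one without overlap read 3.52, 1.91 and 2.92 in 2T-WT and 1.67, 1.73 and 1.81 in 2T-p190-B-/-, a difference of −1.05 ± 0.71 (limma adjusted p = 0.64), which was −0.68 without 2T-WT replicate 1 and −0.25 after normexp. The 2T-p190-B-/- arrays lay close together and 2T-WT replicate 2 lay just above them. The brighter Wnt1 probe read 5.15, 4.68 and 5.77 against 4.23, 3.95 and 5.21. Its groups overlapped, with 2T-p190-B-/- replicate 3 above 2 of the 2T-WT arrays, and its difference of −0.74 ± 0.72 became 0.16 after quantile normalization and 0.18 after normexp.

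Wnt6, another β-catenin ligand, was above background on all 6 arrays, at 5.26, 5.02 and 5.48 in 2T-WT and 4.02, 5.24 and 4.66 in 2T-p190-B-/-. One 2T-p190-B-/- array, replicate 2, lay within the 2T-WT range. The difference of −0.61 ± 0.68 turned to 0.30 after quantile normalization and 0.38 after normexp.

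For Wnt8b, a β-catenin ligand of the developing brain, the probes ran in opposite directions. The brighter read 1.83, 0.43 and 1.02 in 2T-WT and −1.71, −0.80 and 1.47 in 2T-p190-B-/-, a difference of −1.44 ± 0.96. The dimmer gave 1.17 ± 1.28, with 1 array, 2T-p190-B-/- replicate 2, at 1.78 and the other 5 between −3.15 and −2.07. Both overlapped, so the arrays give no single direction for Wnt8b.

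The remaining 9 tested ligand genes all overlapped between genotypes. Their differences ran from −1.47 ± 0.81 for Wnt10b to 0.29 ± 0.93 for Wnt7a, with Wnt4 at 0.00 ± 0.76. Of the 5 ligands left untested, Wnt3a and Wnt9a stand in the study's supplementary gene lists, which were drawn from these arrays. Wnt3a was above background on 2T-p190-B-/- replicate 3 alone, at −2.67, and Wnt9a on 2T-p190-B-/- replicate 1 alone, at −3.09, so that neither gives a fold change.

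Of the genes that finish and export a ligand, the acyltransferase Porcn was above background on 1 2T-WT and 2 2T-p190-B-/- arrays. It read −4.30, −2.75 and −2.46 in 2T-WT and −4.30, −5.11 and −3.32 in 2T-p190-B-/-. These values lie near the lowest signals called above background, −4.02 to −2.26 and −4.84 to −2.86, and the groups overlapped, with a difference of −1.07 ± 0.83 (limma adjusted p = 0.68). The carrier Wls was on no array.

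The secreted antagonists, which bind ligands (Sfrp) or Lrp coreceptors (Dkk), had 4 of 8 genes tested, 3 lower and 1 higher, with a median of −0.27. Sfrp5 read 3.90, 1.83 and 3.89 in 2T-WT and 2.82, 1.85 and 1.77 in 2T-p190-B-/-, a difference of −1.06 ± 0.83 (limma adjusted p = 0.68). One 2T-WT array, replicate 2, lay among the 2T-p190-B-/- arrays, and the difference was −1.75 without it, −0.53 within the shared slide and −0.20 after normexp. Dkk4 was the antagonist that was higher, at −1.03, −0.68 and −0.55 against 0.26, −1.02 and 0.84, a difference of 0.78 ± 0.75 (limma adjusted p = 0.73) with 1 2T-p190-B-/- array, replicate 2, at the bottom of the 2T-WT range. It was 1.30 without that array and 0.23 within the shared slide. Dkk1 gave −0.11 ± 0.89 and Sfrp4 −0.43 ± 0.86. Dkk2, in the study's supplementary lists, was above background on 2T-p190-B-/- replicate 1 alone, at −0.80.

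The 5 tested Frizzled genes were all lower at their brightest probe, with a median of −1.05, and all 5 were below the all-gene median; 0 had an adjusted p under 0.05. They were lower also after quantile normalization and after normexp. Without 2T-WT replicate 2, and without 2T-p190-B-/- replicate 2, 4 of the 5 were lower, with medians of −1.11 and −0.62. Of their 6 tested probes 1 was above background on all 6 arrays. Over the 6636 probes that were above background on no array the mean of the array medians was −5.04 in 2T-WT and −6.01 in 2T-p190-B-/-, so the level of blank spots was itself lower in 2T-p190-B-/- on this scale. Its part in the Frizzled values was not tested.

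Fzd6, a receptor of the planar polarity branch, read −2.83, −1.92 and −2.75 in 2T-WT and −3.20, −4.55 and −2.91 in 2T-p190-B-/-. It was above background on 1 2T-WT and 2 2T-p190-B-/- arrays, and the nearest arrays differed by little. The difference was −1.05 ± 0.75 (limma adjusted p = 0.66), −1.31 after normexp and −0.56 without 2T-p190-B-/- replicate 2. Fzd5, the Frizzled gene whose brighter probe was above background on all 6 arrays, read 1.82, 0.73 and 4.07 in 2T-WT and 0.49, 1.26 and 0.79 in 2T-p190-B-/-. The difference of −1.36 ± 0.95 became −0.43 without 2T-WT replicate 3, and the dimmer Fzd5 probe gave 0.02 ± 1.47. Fzd9 ranged from −2.54 to 1.44 and from −2.85 to 1.57, a spread that hides any difference near its −0.42 ± 1.37.

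A pair of receptors outside the rule for named genes was picked after the values were seen. Fzd2 had the largest difference of all members, −2.47 ± 1.23 (limma adjusted p = 0.64). It read 1.13, −1.94 and −3.51 in 2T-WT and −3.84, −2.83 and −5.07 in 2T-p190-B-/-, so that the groups overlapped and 1 array, 2T-WT replicate 1, was far above the rest. Without it the difference was −1.19, and within the shared slide it was −0.61. The probe was above background on 2 2T-WT arrays and 1 2T-p190-B-/- array, and the second Fzd2 probe on none. Fzd8 read −2.01, −2.76 and −2.72 against −3.27, −4.19 and −2.97, without overlap, a difference of −0.98 ± 0.70 (limma adjusted p = 0.66), with the probe above background on 2 arrays of each genotype.

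Lrp6, a coreceptor of β-catenin signals, had the probe with the widest gap between the groups among the 6 without overlap. Its brighter probe read 1.10, 1.02 and 1.99 in 2T-WT and −0.01, −0.10 and 0.23 in 2T-p190-B-/-. The 2T-p190-B-/- arrays lay close together and every 2T-WT array lay above them. The difference was −1.33 ± 0.67 (limma adjusted p = 0.64, exact permutation p = 0.1), and it stayed between −1.50 and −1.02 with 1 array left out, at −1.33 after quantile normalization and −0.76 after normexp. The second Lrp6 probe gave −1.63 ± 1.11 with overlapping groups, 2T-WT replicate 1 at 2.03 and the other 2T-WT arrays at −1.98 and −1.21. Lrp5, the related coreceptor, read 5.15, 5.06 and 4.38 against 3.98, 4.41 and 5.50. The groups of Lrp5 overlapped fully, and its difference of −0.23 ± 0.73 turned to 0.57 after quantile normalization and 0.79 after normexp.

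Inside the cell, the Dishevelled and destruction complex genes had no common direction. Of 9 genes 8 were tested, 4 lower and 4 higher, with a median of −0.01, and 0 of the 8 were below the all-gene median of −0.35. That last count depended on the setting. After normexp, with all genes at −0.44, Csnk1a1 (−1.21), Axin2 (−0.76) and Dvl2 (−0.59) lay below, and within the shared slide, with all genes at −0.50, Csnk1a1 (−1.50) and Dvl3 (−0.91) did. None of their probes separated the genotypes. Axin1, a scaffold of the complex, read 6.39, 3.85 and 2.25 in 2T-WT and 4.66, 3.73 and 5.37 in 2T-p190-B-/-, so that the 2T-WT arrays spanned more than the 2T-p190-B-/- arrays on both sides (difference 0.42 ± 1.11, limma adjusted p = 0.91). It was −0.54 without 2T-WT replicate 3 and 1.53 without 2T-WT replicate 1.

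Axin2, the second scaffold and a known β-catenin target, read −2.35, −2.49 and −0.68 against −3.21, −0.67 and −2.43. Each group held 1 high array and 2 low ones, and the difference was −0.27 ± 0.92 (limma adjusted p = 0.94). Axin2 stands in the study's supplementary lists drawn from these arrays, and its second probe was above background on 2T-p190-B-/- replicate 2 alone, at −1.18.

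Apc, the large scaffold that binds β-catenin, gave small differences on both of its probes, 0.13 ± 0.78 and 0.32 ± 0.76, and read 0.14, 0.51 and −0.83 against 1.02, −0.04 and −0.76 on the brighter. Csnk1a1, the kinase that primes β-catenin, read −3.97, −0.31 and −2.25 against −2.80, −2.74 and −1.73, a difference of −0.25 ± 1.00 that was 0.68 without 2T-WT replicate 2 and −1.50 within the shared slide. It was above background on 1 2T-WT and 2 2T-p190-B-/- arrays. Gsk3b, the kinase that follows it, read −1.88, −0.69 and −4.45 against 1.52, −2.68 and −2.03. A single array, 2T-p190-B-/- replicate 1, carried the Gsk3b difference of 1.28 ± 1.36, which was −0.01 without it. Gsk3a was above background on 1 array, 2T-WT replicate 2, at −2.71.

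Dvl3, one of the Dishevelled adaptors, was above background on all 6 arrays and differed by −0.33 ± 0.70, with overlapping values of 0.55, 1.55 and 1.29 against 0.74, 0.27 and 1.40. Dvl2 gave −0.15 ± 0.77 and Dvl1 1.63 ± 1.59, the highest difference of the member genes. The Dvl1 values spanned −3.16 to 1.71 and −2.33 to 2.70, and within the shared slide the difference was −0.49.

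At the end of the pathway, 2 of 5 genes were tested. Lef1 read −4.34, −1.62 and −1.95 in 2T-WT and −2.08, −1.42 and −2.11 in 2T-p190-B-/-. The lowest array, 2T-WT replicate 1, set the difference of 0.77 ± 0.89 (limma adjusted p = 0.78), which was −0.08 without it, 0.04 within the shared slide and −0.68 after normexp. Tcf7l2 was above background on all 6 arrays with both tested probes, which differed in sign, −0.50 ± 0.78 on the brighter and 0.54 ± 0.78 on the dimmer. The brighter read 2.22, 0.98 and 3.20 against 1.37, 1.73 and 1.82, and the dimmer −1.79, −2.45 and −1.22 against −2.32, −1.03 and −0.50. Ctnnb1, Tcf7 and Tcf7l1, the remaining genes of this step, gave no signal above background with any of their 4 probes.

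The wider pathway was described with 8 lists of 141 genes that hold no member, of which 140 were on the array and 95 were tested. An adjusted p under 0.05 by limma was reached by 0 of the 95, an unadjusted one by 6 (6.57% of all tested probes). Of the 95 genes 63 had lower and 32 higher values in 2T-p190-B-/-, where 61.4% of all genes were lower. Their median was −0.49, and 53 of them were under the all-gene median. Genotypes stood apart without overlap for 20 lower genes and 1 higher gene, where 11.5% and 4.47% of all tested probes did so. The genes are taken at their brightest tested probe, the shares over single probes. Of all probes above background on all 6 arrays, 14.0% were lower without overlap. Other coreceptors and receptors had 3 of 5 genes lower (median −0.56), R-spondins with their receptors and ligases 2 of 4 (−0.40), other secreted antagonists 3 of 6 (0.05) and glypicans with secretion genes 3 of 5 (−1.37). Partners of the destruction complex had 16 of 21 lower (−0.49), nuclear partners of β-catenin 7 of 12 (−0.43), the polarity and calcium branch 16 of 22 (−0.52) and known Wnt targets 13 of 20 (−0.32).

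The genes named from these lists are those at least 2-fold different without overlap that had the smallest p in each direction. Dact2, which binds Dishevelled, read 3.07, 4.08 and 2.74 in 2T-WT and 1.37, 0.74 and 1.54 in 2T-p190-B-/-, a difference of −2.08 ± 0.71 (limma adjusted p = 0.64). Among the targets, Ccnd1 (cyclin D1) read −2.70, −2.65 and −1.20 against −4.40, −4.50 and −3.37, a difference of −1.91 ± 0.76. Sp5, a direct β-catenin target, read −1.61, −1.12 and −0.35 against −3.16, −2.28 and −2.86, a difference of −1.74 ± 0.70. In all 3 genes every 2T-p190-B-/- array lay below every 2T-WT array, and Ccnd1 and Sp5 were both highest on 2T-WT replicate 3. The glypican Gpc6 differed by −1.80 ± 0.77 and the GTPase Rac1, of the polarity branch, by −1.54 ± 0.77, −1.01 without 2T-WT replicate 3. The adjusted p of Ccnd1, Sp5, Gpc6 and Rac1 by limma was 0.64. Dact2 and Sp5 were above background on all 6 arrays, Ccnd1 and Gpc6 on 2 of each genotype, and Rac1 on 3 2T-WT and 2 2T-p190-B-/- arrays. Many values of Ccnd1, Gpc6 and Rac1 lie near the lowest signals called above background, −4.02 to −2.26 in 2T-WT and −4.84 to −2.86 in 2T-p190-B-/-. The level of blank spots was lower in 2T-p190-B-/-, −6.01 against −5.04, and its part in these values was not tested. Sostdc1, a secreted antagonist that binds Lrp5 and Lrp6, was the 1 gene higher without overlap, at −2.56, −2.73 and −2.69 in 2T-WT and −0.09, 1.37 and 0.50 in 2T-p190-B-/-. Its brighter probe was above background on 1 2T-WT array and all 2T-p190-B-/- arrays. The difference was 3.26 ± 0.70 (limma adjusted p = 0.46, exact permutation p = 0.1), 1.38 after normexp and 1.31 as the mean over its 2 tested probes. That mean requires the dimmer Sostdc1 probe to be lower in 2T-p190-B-/-, so the 2 probes differed in direction.

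**Figure D5:**
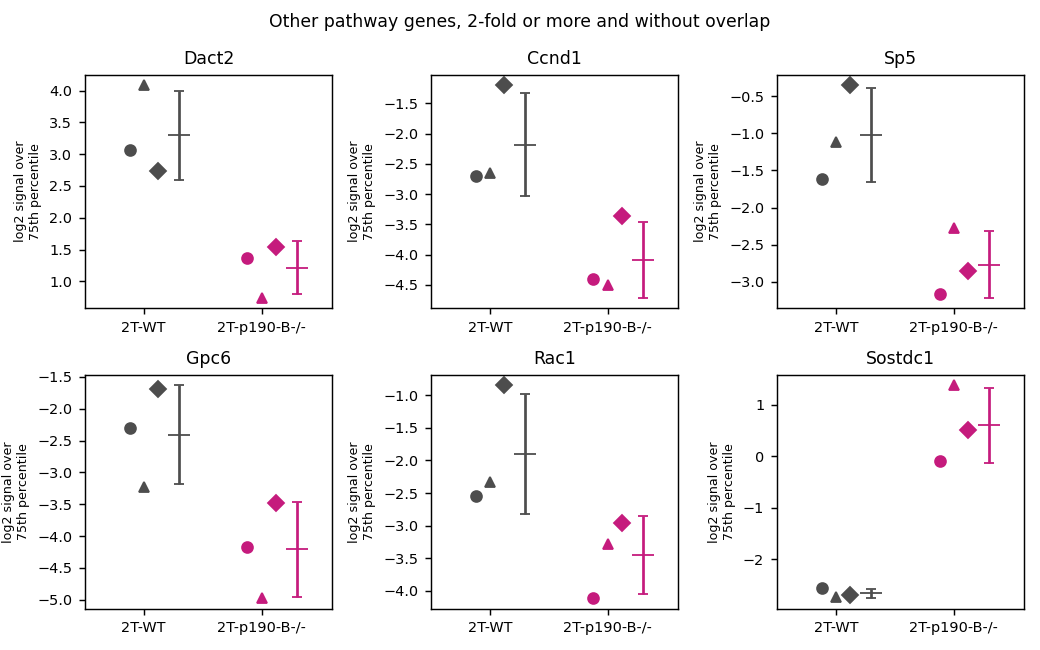
Log2 signal over the array's 75th percentile (vertical axis, a scale of its own in each panel) for the 6 genes of the wider pathway named by the rule, with 2T-WT in grey and 2T-p190-B-/- in pink. Circle, triangle and diamond are replicates 1, 2 and 3 and the bar is the mean with SD. At the brightest tested probe, 5 genes were lower and Sostdc1 was higher in 2T-p190-B-/-, each without overlap.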

How the data were processed

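Each sample was labelled with Cy3 and hybridised alone to an Agilent array, and genotype and replicate were taken from the sample labels. The authors deposited Feature Extraction 10.5.1.1 output, whose processed signal is a linear intensity after background removal, unscaled between arrays. They also deposited a table of processed signal that equals it divided by 1 number per array. Here, control spots and 296 to 509 spots per array marked as outliers were removed, and 0 spots were saturated. The signal was divided by its 75th percentile on the array, log2-transformed and averaged where a probe had several spots. The 25159 probes well above background on 3 or more arrays were tested with limma 3.58.1 (R 4.3.3) without covariates, with Benjamini-Hochberg adjustment. The brightest tested probe stands for a gene. Of 39429 probes, 26412 were named through accessions and 4589 through gene names in the RefSeq table (GRCm38.p6), and 8428 kept the files' name. Named members were those with an unadjusted p under 0.05 or a 2-fold difference without overlap, the core transducers, members of the study's supplementary lists, the 2 best-detected genes of each role, and genes whose probes oppose each other. The members, the 8 pathway lists and the lists of cell type markers were chosen with earlier results of these data known; 1 marker gene is not reported here. The 18 alternatives were other background corrections, scalings, filters, blocks, variance models and tests, the authors' table, the mean over probes, and each array left out. The number of arrays limits the precision.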

Additional observations from a re-analysis of the deposited data

How the results depend on the processing

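The count of members at an adjusted p under 0.05 was 0 in all 18 alternatives, as was that of the wider pathway. At an unadjusted p under 0.05 it was 6 after normexp (where 14.3% of all probes passed), 1 with slide as a block or within slide 2 (a Wnt16 probe), 1 by the methods' t-test (Lrp6), and 0 to 1 with 1 array left out. Of all probes, 7.43% passed with slide as a block, 7.41% within slide 2 and 7.09% by the t-test. With 1 array left out 4.25% to 9.71% did. Groups did not overlap for 11 members after normexp, 3 after quantile normalization and 14 within slide 2, all of them lower. Of all probes, 19.9%, 9.28% and 33.1% were lower without overlap in these settings. With 1 array left out the count was 9 to 13 of 43 in either direction, beside 22.9% to 32.3% of all probes. Within slide 2 and with 1 array left out there were fewer arrays to overlap. The member median was −0.73 without 2T-WT replicate 1, −0.69 without 2T-WT replicate 2, −0.65 without 2T-p190-B-/- replicate 3, −0.23 without 2T-p190-B-/- replicate 2 and −0.86 within slide 2, where the slide block gives the same value. The medians of all genes were, in that order, −0.39, −0.38, −0.45, −0.34 and −0.50. Without 2T-p190-B-/- replicate 2 the members thus lay above all genes, with 17 of 36 below the all-gene median. Without the filter on dim probes they also lay above, at −0.50 against −0.52.

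Of the 36 tested member genes, 8 changed sign after normexp, 6 after quantile normalization, 3 within slide 2, and 18 with at least 1 of the 6 arrays left out. Among the members named by the rule these were, after normexp, Gsk3b −0.0049, Lef1 −0.68, Lrp5 0.79, Tcf7l2 0.21, Wnt1 0.18 and Wnt6 0.38, after quantile normalization Lrp5 0.57, Wnt1 0.16 and Wnt6 0.30, and as the mean over probes Tcf7l2 0.022; the cause was not tested. With 1 array left out, the ranges of named members that crossed 0 were −0.083 to 1.28 for Lef1, −1.15 to 0.68 for Csnk1a1, −1.60 to 0.61 for Fzd9, −0.34 to 0.55 for Apc, −0.54 to 1.53 for Axin1, −0.98 to 0.31 for Axin2, −1.07 to 0.036 for Tcf7l2, −0.013 to 2.10 for Gsk3b and −0.67 to 0.10 for Lrp5. Arrays of the same replicate number deviated together with correlations of 0.009, 0.016 and 0.086 over probes, and those of unlike number with −0.075 to 0.067. The paper mentions independent isolations, which the labels do not tie to arrays. With so few arrays per group these correlations cannot tell whether the numbers pair the arrays. With the replicate number as a block the member counts were 0 and 0, the median was −0.42, and no call changed.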
